A study of Mus musculus with 6 samples.

Results

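The genes described here encode carriers and pumps for ions, bicarbonate and phosphate: the sodium-hydrogen exchangers (Slc9a), the anion exchangers and sulfate carriers (Slc26a), the bicarbonate transporters (Slc4a), the chloride cotransporters (Slc12a), the phosphate carriers (Slc20a and Slc34a), the sodium-calcium exchangers (Slc8a and Slc24a) and the sodium pump subunits (Atp1a and Atp1b). They were chosen by the start of the gene symbol, which gave 56 of the 19938 genes tested. Of these, at least 3 share only the start of the name and are no transporters (Slc9a3r1, Slc9a3r2 and Slc4a1ap), and these 3 are described apart. The others were grouped by family name, without a check of what each member carries.

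Each value came from total RNA of a whole preparation of epithelial cells of the mouse jejunum (mid small intestine), hybridised to a whole-transcript gene array. The 3 transgenic animals carried R26-M2rtTA (a transcription activator that needs doxycycline, expressed from the Rosa26 locus) together with a Musashi transgene under a promoter that this activator turns on (TRE). The 3 control animals carried R26-M2rtTA without the transgene. All 6 animals drank doxycycline for 24 h, so the activator and the drug were common to both groups. As background, the Rosa26 locus is active in most cell types, so induction need not be limited to the epithelium. The series text names the transgene Msi1 and the genotype label names MSI2. Msi1 averaged 12.60 ± 0.09 in the transgenic arrays and 6.94 ± 0.09 in the control arrays (mean log2 signal ± SD, n = 3 each), while Msi2 averaged 8.22 ± 0.30 and 8.64 ± 0.06.

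As background, enterocytes take up sodium through exchangers of the apical membrane that swap it for protons, and work in parallel with anion exchangers that swap chloride for bicarbonate, which together draw salt and water out of the gut lumen. The sodium pump of the basolateral membrane keeps cell sodium low and so drives this uptake as well as sodium-coupled phosphate uptake. In crypts, a basolateral cotransporter loads the cells with chloride, which then leaves through channels of the apical membrane and brings fluid into the lumen.

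The first transgenic array differed most from the rest: its correlation across genes with them was 0.922 to 0.951, against 0.996 between transgenic replicates 2 and 3 and 0.995 to 0.996 between control arrays. The 8 enterocyte markers averaged 9.97 on transgenic replicate 1 and 12.22 and 12.17 on the other transgenic arrays, against 12.46 to 12.56 on the control arrays, and 0 of the 8 passed with all arrays (limma; 1 at an unadjusted p under 0.05). Without replicate 1, 4 of the 8 passed, all lower, among them Sis, the sucrase-isomaltase of the brush border (-1.17), and Fabp1, a fatty acid binding protein (-0.48). The 6 markers of T cells and intraepithelial lymphocytes averaged 5.55 on transgenic replicate 1 and 8.13 and 8.17 on the other transgenic arrays, against 8.52 to 8.83 on the control arrays, and 0 of 6 passed with all arrays (limma; 0 also at an unadjusted p under 0.05). Without replicate 1, 4 of the 6 passed, all lower, among them Gzmb (-0.74) and Cd3g (-0.72). No marker signal was at 0 on any array, since every probe has some background signal. In the 7 lists for smooth muscle and fibroblasts, nerve, endothelium, erythrocytes, B cells, macrophages and pancreas 0 members passed (1 each for nerve and B cells at an unadjusted p under 0.05). The list means ran from 5.21 to 6.35 on the transgenic arrays and from 5.33 to 6.36 on the control arrays. Only 2 of 6 listed erythrocyte genes and 4 of 6 pancreas genes were measured, so these lists say little about such cells. Of 6 markers of the distal small intestine 1 passed (2 at an unadjusted p under 0.05). It was the bile acid carrier Slc10a2 (3.49 higher on the log2 scale, limma adjusted p = 0.00677). The other distal markers lay on both sides of the controls' means, from -0.69 for Osr2 to 0.14 for Muc13. Of 5 proximal markers 0 passed (0 at an unadjusted p under 0.05). Without replicate 1 the counts were 0 in each of those 7 lists, 1 of 6 distal markers (higher) and 1 of 5 proximal markers (lower). What part these shifts in markers, on replicate 1 or on the other transgenic arrays, had in the transporter signals was not tested, and in such preparations fewer cells of a type and less RNA per cell cannot be told apart. Counts of genes that passed are therefore given with all arrays and without that array.

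Few of the 56 genes passed the test, which was limma with a Benjamini-Hochberg adjusted p under 0.05 over all 19938 genes. With all arrays 4 passed (7.14%), 1 higher and 3 lower in the transgenic arrays, against 11.9% of all genes (6.04% higher and 5.84% lower). The median difference of the members was -0.06 on the log2 scale, against -0.04 over all genes. Another 8 members had an unadjusted p under 0.05 without passing, for 12 in all. Without transgenic replicate 1, 15 members passed (26.8%), 6 higher and 9 lower, against 28.6% of all genes (14% higher and 14.5% lower). The groups did not overlap for 14 members (25%), 3 higher and 11 lower, against 34.2% of all genes, and without transgenic replicate 1 for 20 (35.7%), against 48.4%. Of the 56, 23 were among the dimmest 40% of genes and 0 of those passed.

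**Figure D1:**
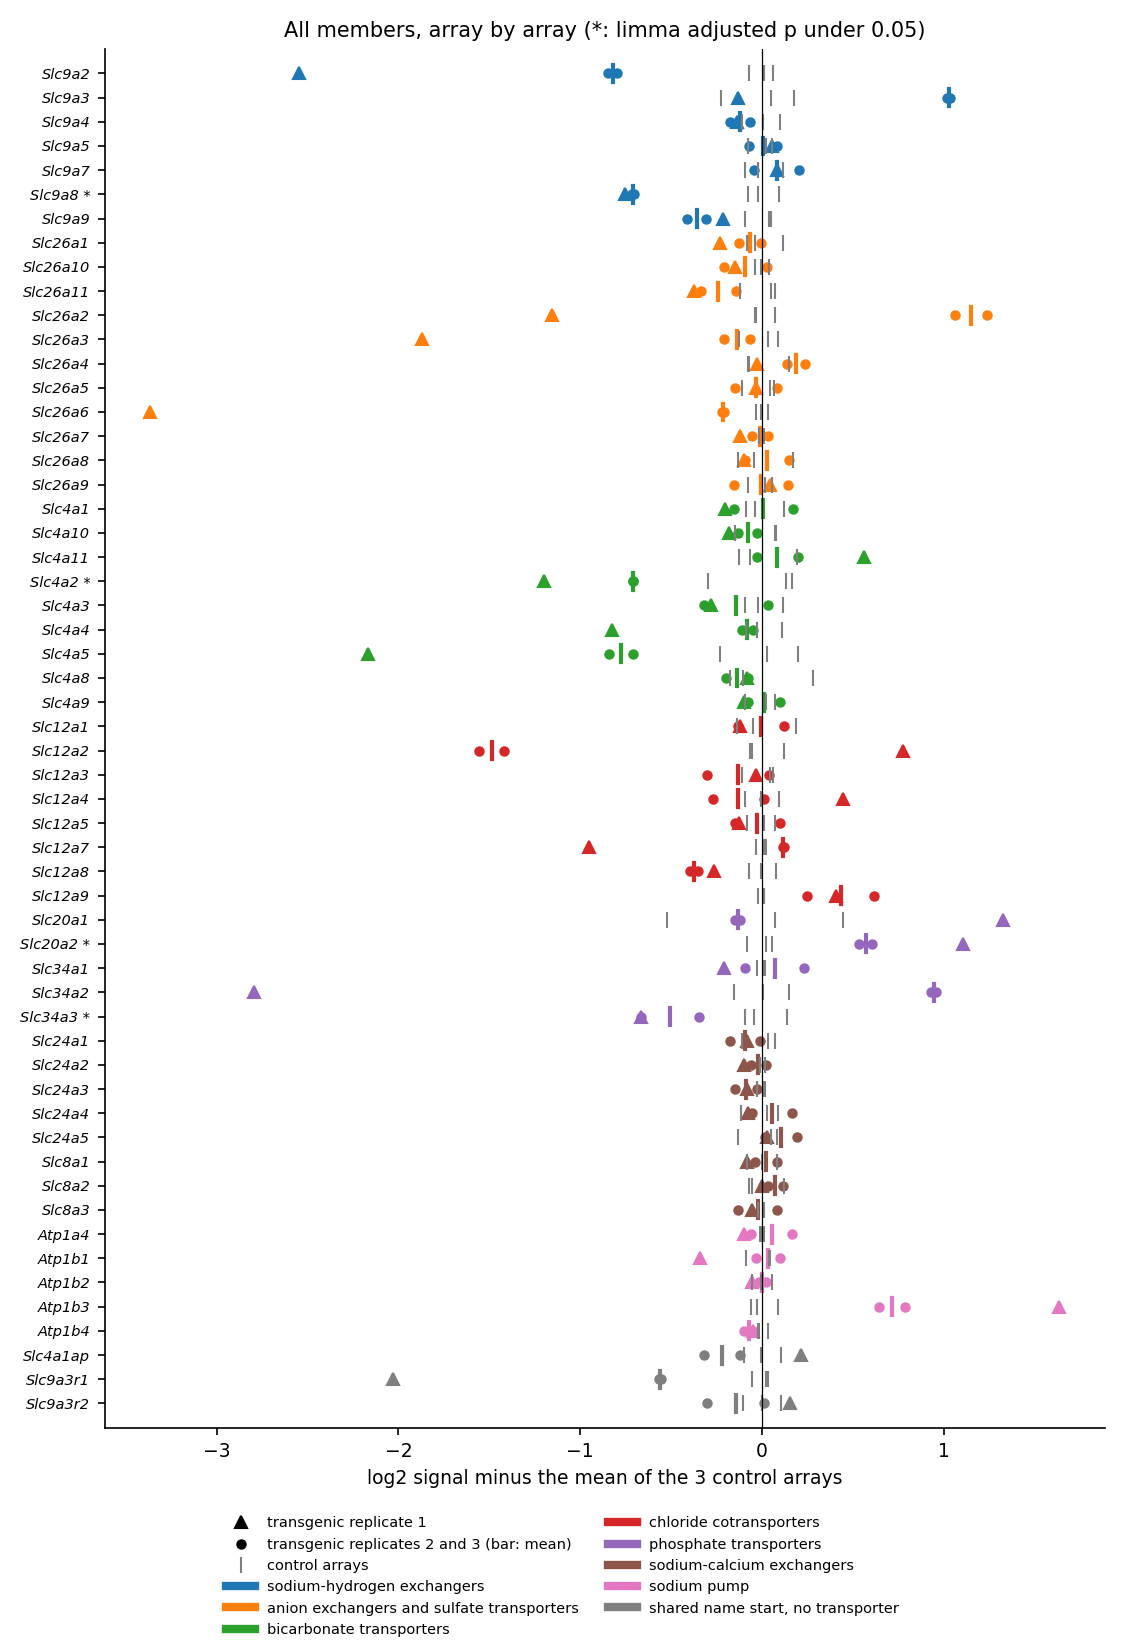
Log2 signal of each of the 56 genes on each array, minus the mean of the 3 control arrays (horizontal axis), with transgenic replicate 1 as triangles, transgenic replicates 2 and 3 as circles with a bar at their mean, and control arrays as grey ticks; colours mark the kind of transporter and asterisks the 4 genes that passed. Replicate 1 lies far to the left for Slc26a6 (-3.37), Slc34a2 (-2.79) and Slc9a2 (-2.55), while most dim members stayed near 0 on every array.

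The 4 genes that passed were a sodium-hydrogen exchanger, a chloride-bicarbonate exchanger and 2 phosphate carriers. Slc9a8, an exchanger found at the apical membrane and in Golgi membranes, fell, and was the only member whose call stayed with each of the 6 arrays left out in turn. Slc4a2, which exchanges chloride for bicarbonate across the basolateral membrane of many epithelia, fell. Among phosphate carriers Slc20a2, a widely expressed sodium-phosphate cotransporter that also serves as a retrovirus receptor, rose, and Slc34a3, best known from the kidney tubule, fell.

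Slc9a8 (row 10478854, chromosome 2) had 8.50, 8.54 and 8.55 in the transgenic arrays, against 9.36, 9.24 and 9.18 in the control arrays. The transgenic arrays lay within 0.1 log2 units of each other, all below every control. The difference was -0.73 (SE 0.0811, limma adjusted p = 0.00501), or 0.605 times the control signal. It was -0.71 without transgenic replicate 1, and the adjusted p was at most 0.0369 with any array left out.

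Slc4a2 (row 10520187, chromosome 5) had 7.89, 8.38 and 8.38 in the transgenic arrays, against 9.22, 9.26 and 8.79 in the control arrays. No transgenic array reached the lowest control, and transgenic replicate 1 was the lowest array. The difference was -0.87 (SE 0.191, limma adjusted p = 0.0363), and -0.71 without transgenic replicate 1 (adjusted p = 0.00568). The call was lost without any other single array, with adjusted p from 0.054 without control replicate 3 to 0.148 without control replicate 1.

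Slc20a2 (row 10570837, chromosome 8) had 9.42, 8.85 and 8.92 in the transgenic arrays, against 8.23, 8.37 and 8.34 in the control arrays. All transgenic arrays lay above all controls, with replicate 1 the highest. The difference was 0.75 (SE 0.164, limma adjusted p = 0.0362), and 0.57 without transgenic replicate 1 (adjusted p = 0.00146). This call too was lost without any other single array, with adjusted p from 0.0579 to 0.148.

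Slc34a3 (row 10480633, chromosome 2) had 6.13, 6.13 and 6.45 in the transgenic arrays, against 6.75, 6.93 and 6.70 in the control arrays. The transgenic values all lay below the controls and close to the array medians of 6.27 to 6.34. The difference was -0.56 (SE 0.123, limma adjusted p = 0.0372), and -0.51 without transgenic replicate 1 (adjusted p = 0.0131). It was lost without transgenic replicate 2 (0.114) and without each control (0.102 to 0.145). With 3 arrays a group an exact permutation test (two-sided) cannot go below p = 0.1, and it gave p = 0.1 for each of the 4 genes.

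**Figure D2:**
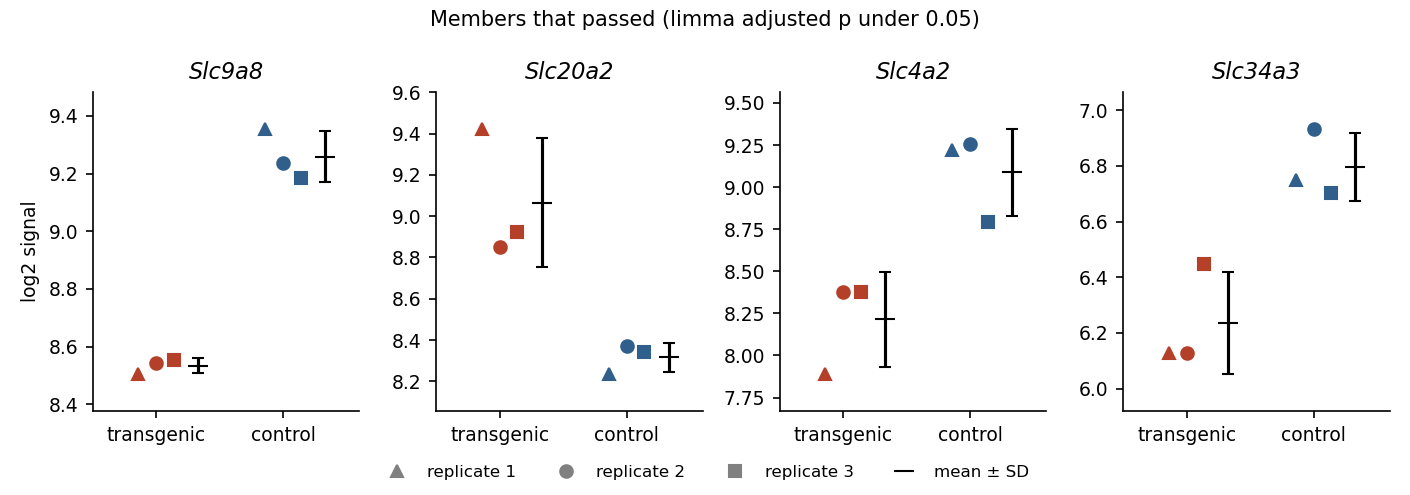
Log2 signals of the 4 genes that passed, with 1 point per array by replicate, transgenic on the left and control on the right of each panel, and mean ± SD (n = 3 each) as bars. Groups do not overlap in any panel, and the spread is smallest for Slc9a8 in the transgenic arrays (8.50 to 8.55).

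The promoters of 3 of these genes, and those of the sodium-hydrogen exchanger Slc9a3 and the phosphate carrier Slc34a2, are shown, the first because these genes passed and the other two because they encode brush border carriers that lay above all controls on transgenic replicates 2 and 3. Each stretch holds 250 bases before and 50 bases after the annotated start in RefSeq (GRCm38.p6), and 45 of the 56 genes had an entry. For Slc4a2 the upstream of its listed starts was taken. Capitals mark matches, on either strand, to the GC box GGGCGG (read as CCGCCC on the other strand), the CCAAT box CCAAT, the TATA box TATAAA or the E-box CACGTG, and no marked matches overlap. The stretches lie at chr2:167421460-167421759, plus strand (Slc9a8), chr5:24424982-24425281, plus strand (Slc4a2), chr2:25234185-25234484, minus strand (Slc34a3), chr13:74121163-74121462, plus strand (Slc9a3) and chr5:53049103-53049402, plus strand (Slc34a2).
Slc9a8: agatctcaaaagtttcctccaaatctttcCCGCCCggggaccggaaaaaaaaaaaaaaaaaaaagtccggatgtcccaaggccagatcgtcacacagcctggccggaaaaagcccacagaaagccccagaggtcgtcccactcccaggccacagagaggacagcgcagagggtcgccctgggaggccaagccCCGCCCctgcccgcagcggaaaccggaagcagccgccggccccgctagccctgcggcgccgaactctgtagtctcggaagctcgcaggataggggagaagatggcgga
Slc4a2: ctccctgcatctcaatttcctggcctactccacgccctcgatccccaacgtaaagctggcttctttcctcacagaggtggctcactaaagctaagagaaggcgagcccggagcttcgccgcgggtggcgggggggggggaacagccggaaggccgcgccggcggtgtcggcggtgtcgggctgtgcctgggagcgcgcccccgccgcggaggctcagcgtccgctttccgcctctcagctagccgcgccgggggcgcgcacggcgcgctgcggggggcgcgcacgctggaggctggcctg
Slc34a3: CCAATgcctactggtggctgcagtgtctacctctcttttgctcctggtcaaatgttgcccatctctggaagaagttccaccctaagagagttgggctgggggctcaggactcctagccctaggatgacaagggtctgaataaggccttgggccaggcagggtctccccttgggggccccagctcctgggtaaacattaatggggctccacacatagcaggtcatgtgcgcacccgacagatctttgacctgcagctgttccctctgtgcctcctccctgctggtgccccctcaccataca
Slc9a3: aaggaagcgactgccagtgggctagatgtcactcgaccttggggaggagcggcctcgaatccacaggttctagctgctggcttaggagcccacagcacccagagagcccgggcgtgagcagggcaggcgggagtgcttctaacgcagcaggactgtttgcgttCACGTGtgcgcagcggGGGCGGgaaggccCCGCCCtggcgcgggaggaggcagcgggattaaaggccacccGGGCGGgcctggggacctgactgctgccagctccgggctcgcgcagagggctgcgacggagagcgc
Slc34a2: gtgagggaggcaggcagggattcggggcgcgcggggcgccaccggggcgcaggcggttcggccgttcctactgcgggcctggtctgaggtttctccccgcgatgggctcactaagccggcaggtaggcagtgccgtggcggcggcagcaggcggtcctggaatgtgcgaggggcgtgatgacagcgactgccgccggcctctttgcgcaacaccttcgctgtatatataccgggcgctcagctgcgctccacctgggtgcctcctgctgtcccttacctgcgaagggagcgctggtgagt

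Slc9a8 held 2 GC boxes, at bases 30 to 35 and 193 to 198 of its stretch, and Slc9a3 held 3 GC boxes and an E-box at bases 164 to 169. Slc34a3 held a CCAAT box at its first bases, and the stretches of Slc4a2 and Slc34a2 held none of the 4 motifs. Over all 32851 promoters in the table, 35.7% held a GC box, 37.4% a CCAAT box, 13.6% a TATA box and 7.15% an E-box. Over the 58 promoters of members the shares were 44.8%, 43.1%, 19.0% and 15.5%. These matches describe the letters and were not tested for binding.

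Among the 7 sodium-hydrogen exchangers only Slc9a8 passed with all arrays (1 of 7, 14.3%), and 4 of 7 did without transgenic replicate 1, Slc9a3 higher and Slc9a2, Slc9a8 and Slc9a9 lower. Slc9a3 encodes the main apical exchanger of sodium absorption in the small intestine. It had 11.35, 12.52 and 12.50 in the transgenic arrays, against 11.53, 11.66 and 11.26 in the control arrays. Transgenic replicate 1 was within the control range and the other transgenic arrays were above it. The difference was 0.64 with all arrays (SE 0.333, limma adjusted p = 0.314) and 1.03 without transgenic replicate 1 (SE 0.122, adjusted p = 4.36e-04), or 2.04 times the control signal.

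Slc9a2 encodes a further apical exchanger of the gut. It had 7.84, 9.54 and 9.59 in the transgenic arrays, against 10.45, 10.31 and 10.40 in the control arrays, so each transgenic array was below each control. The difference of -1.40 did not pass with all arrays (SE 0.47, limma adjusted p = 0.124), and was -0.82 without transgenic replicate 1 (SE 0.0849, adjusted p = 2.18e-04). Slc9a2 and Slc9a3, both apical, thus lay on opposite sides of the controls on transgenic replicates 2 and 3. Slc9a9, an exchanger of endosomes named after its values were seen, had 5.67, 5.47 and 5.58 in the transgenic arrays and 5.94, 5.92 and 5.79 in the control arrays (difference -0.31, adjusted p = 0.0843). Slc9a4, Slc9a5 and Slc9a7 were dim, with differences from -0.13 to 0.08.

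Slc9a3r1 and Slc9a3r2 carry the exchanger's name but encode the scaffold proteins NHERF1 and NHERF2, which hold transporters at the apical membrane. Slc9a3r1 had 9.90, 11.37 and 11.36 in the transgenic arrays, against 11.95, 11.96 and 11.87 in the control arrays. All transgenic values were lower, and replicate 1 was lowest by far. The difference of -1.05 did not pass with all arrays (limma adjusted p = 0.168) and was -0.56 without transgenic replicate 1 (adjusted p = 0.00117). Slc9a3r2 differed by -0.04 (adjusted p = 0.899). Slc4a1ap, which encodes kanadaptin, a protein found through its binding to the anion exchanger of Slc4a1, differed by -0.07 (adjusted p = 0.836).

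Of the 11 anion exchangers and sulfate carriers of the Slc26a family 0 passed with all arrays (1 at an unadjusted p under 0.05), and Slc26a2 alone passed without transgenic replicate 1. Slc26a6 and Slc26a3 encode apical chloride-bicarbonate exchangers, Slc26a3 being the gene of congenital chloride diarrhoea in humans. Slc26a6 had 7.78, 10.94 and 10.93 in the transgenic arrays, against 11.18, 11.12 and 11.14 in the control arrays. Relative to the control mean, transgenic replicate 1 lay at -3.37 and the other transgenic arrays at -0.22 on average. The difference was -1.27 with all arrays (SE 0.849, limma adjusted p = 0.446) and -0.22 without replicate 1 (adjusted p = 0.082). Slc26a3 had 9.26, 11.06 and 10.92 in the transgenic arrays, against 11.16, 11.01 and 11.22 in the control arrays. Replicate 1 was again low, while replicate 2 lay within the control range and replicate 3 just below it (difference -0.71, adjusted p = 0.442, and -0.14 without replicate 1, adjusted p = 0.401).

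Slc26a2 encodes a sulfate transporter of the epithelium and of cartilage. It had 9.47, 11.87 and 11.69 in the transgenic arrays, against 10.70, 10.59 and 10.60 in the control arrays. Replicate 1 lay below all controls and the other transgenic arrays above all of them. The difference was 0.38 with all arrays (limma adjusted p = 0.786) and 1.15 without transgenic replicate 1 (SE 0.0923, adjusted p = 6.39e-05), or 2.22 times the control signal. The other 8 members, among them Slc26a4 and Slc26a9, differed by -0.28 to 0.12, and 6 of the 8 were dim.

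Of the 9 bicarbonate transporters 1 passed with all arrays, Slc4a2 (11.1%), and 2 without transgenic replicate 1. Slc4a5, an electrogenic sodium-bicarbonate cotransporter, was the second of these. It had 5.99, 7.32 and 7.45 in the transgenic arrays, against 8.36, 7.93 and 8.19 in the control arrays. The groups did not overlap, and replicate 1 was more than 1 log2 unit below the other transgenic arrays. The difference was -1.24 with all arrays (SE 0.395, limma adjusted p = 0.108) and -0.78 without replicate 1 (adjusted p = 0.00232). Slc4a4, the main basolateral sodium-bicarbonate cotransporter of the gut, had 9.73, 10.51 and 10.45 in the transgenic arrays, against 10.67, 10.53 and 10.47 in the control arrays. Its difference was -0.33 (adjusted p = 0.442), and -0.08 without transgenic replicate 1 (adjusted p = 0.644). Slc4a1, the anion exchanger of red blood cells, differed by -0.06 (adjusted p = 0.839), and the other 5 by -0.19 to 0.24.

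Of the 8 chloride cotransporters of the Slc12a family 0 passed with all arrays (2 at an unadjusted p under 0.05) and 3 without transgenic replicate 1. Slc12a2 encodes the basolateral sodium-potassium-chloride cotransporter that loads crypt cells for chloride secretion. It had 10.75, 8.55 and 8.41 in the transgenic arrays, against 9.90, 9.92 and 10.09 in the control arrays. Relative to the control mean, replicate 1 lay at 0.78 and the other transgenic arrays at -1.49 on average. The difference was -0.73 with all arrays (SE 0.615, limma adjusted p = 0.557) and -1.49 without transgenic replicate 1 (SE 0.0968, adjusted p = 2.49e-05), or 0.357 times the control signal, the largest absolute difference of the 56 genes in that fit. Slc12a7, a potassium-chloride cotransporter, had 9.11, 10.18 and 10.18 in the transgenic arrays, against 10.08, 10.07 and 10.03 in the control arrays, with differences of -0.24 with all arrays and 0.12 without replicate 1 (adjusted p = 0.71 and 0.359).

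A pair of less studied Slc12a members, named after their values were seen, had replicate 1 near the other transgenic arrays. Slc12a8, reported to carry nicotinamide mononucleotide in mouse gut, had 9.02, 8.89 and 8.93 in the transgenic arrays and 9.21, 9.36 and 9.27 in the control arrays. Its difference was -0.34 (SE 0.0839, limma adjusted p = 0.0544), and -0.37 without transgenic replicate 1 (adjusted p = 0.0118). Slc12a9 had 8.28, 8.12 and 8.49 in the transgenic arrays and 7.88, 7.88 and 7.85 in the control arrays. Its difference was 0.43 (SE 0.11, limma adjusted p = 0.0611), and 0.43 without that array (adjusted p = 0.0217). The SD over the transgenic arrays was 0.184 for Slc12a9, against 0.0179 over the control arrays, and 0.0683 against 0.0762 for Slc12a8. In neither gene did the groups overlap. The other 4 members differed by -0.10 to 0.06.

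Of the 5 phosphate carriers 2 passed with all arrays, Slc20a2 higher and Slc34a3 lower, and Slc34a2 joined them without transgenic replicate 1. Slc34a2 encodes the sodium-phosphate cotransporter of the intestinal brush border. It had 8.49, 12.22 and 12.24 in the transgenic arrays, against 11.43, 11.13 and 11.30 in the control arrays. Relative to the control mean, replicate 1 lay at -2.79 and the other transgenic arrays at 0.95 on average, the widest gap between replicate 1 and the other transgenic arrays among the 56 genes. The difference was -0.30 with all arrays (SE 1.01, limma adjusted p = 0.907) and 0.95 without replicate 1 (SE 0.105, adjusted p = 3.05e-04). Slc20a1, a relative of Slc20a2 with the same substrate, had 10.45, 8.97 and 9.0 in the transgenic arrays, against 9.19, 9.56 and 8.60 in the control arrays. Only replicate 1 lay outside the control range (difference 0.35, adjusted p = 0.722). Slc34a1, the main phosphate carrier of the kidney, differed by -0.02 (adjusted p = 0.945).

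Of the 8 sodium-calcium exchangers, which export calcium in excitable and other cells, 0 passed with all arrays or without transgenic replicate 1 (0 in both at an unadjusted p under 0.05). Their differences ran from -0.09 to 0.08, and 7 of the 8 were dim, Slc8a1 among them. Of the 5 sodium pump genes 0 passed with all arrays (1 at an unadjusted p under 0.05). Atp1b1 encodes the beta subunit found in most epithelia. It had 12.07, 12.50 and 12.37 in the transgenic arrays, against 12.45, 12.32 and 12.44 in the control arrays (difference -0.09, adjusted p = 0.749). Atp1b3, which encodes another beta subunit, had 11.02, 10.17 and 10.03 in the transgenic arrays, against 9.35, 9.32 and 9.47 in the control arrays. All transgenic values were above all controls, and a second row of the gene showed the same order, with 10.34, 9.61 and 9.42 in the transgenic arrays and 8.90, 8.61 and 8.95 in the control arrays. The difference of the first row was 1.02 with all arrays (SE 0.261, limma adjusted p = 0.0581) and 0.72 without transgenic replicate 1 (SE 0.0916, adjusted p = 6.15e-04). Atp1a4, Atp1b2 and Atp1b4 were dim and differed by -0.06 to 0.00.

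**Figure D3:**
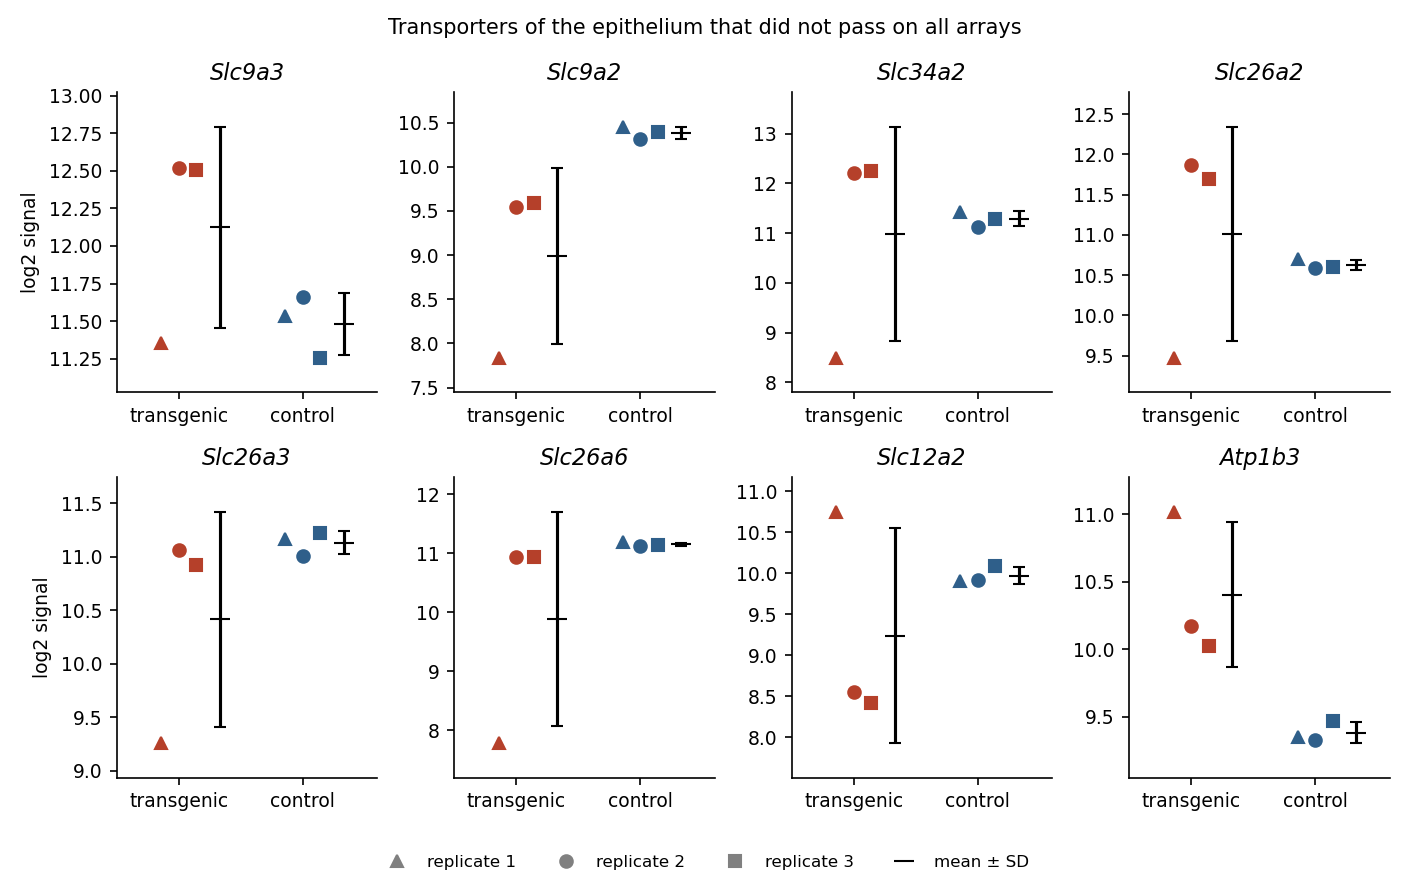
Log2 signals of 8 transporters that did not pass with all arrays, 1 point per array by replicate, transgenic on the left and control on the right of each panel, with mean ± SD (n = 3 each). Transgenic replicate 1 lies on the other side of the controls from replicates 2 and 3 for Slc34a2, Slc26a2 and Slc12a2, and on the same side for Slc9a2, Slc26a6 and Atp1b3.

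Transgenic replicate 1 lay more than 1 log2 unit from the mean of the other transgenic arrays for 11 of the 56 genes. It lay below that mean for 9 (Slc9a2, Slc9a3, Slc9a3r1, Slc26a2, Slc26a3, Slc26a6, Slc4a5, Slc12a7 and Slc34a2) and above it for 2 (Slc12a2 and Slc20a1). The share of all genes with such a gap was not counted, so these counts do not set the transporters apart. For 5 genes transgenic replicate 1 lay outside the control range on the side opposite to both other transgenic arrays (Slc34a2, Slc26a2, Slc12a7, Slc12a2 and Slc4a1ap), against 9.56% of all genes. The 8 enterocyte markers were low on that array too, as given above, and their part in these gaps was not tested.

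Other genes of ion and fluid transport were compared through 9 lists chosen from general knowledge, with 100 genes measured. With all arrays 12 passed (12%), 2 higher and 10 lower, with a median difference of -0.11, and without transgenic replicate 1 40 passed, 14 higher and 26 lower. These shares are to be read against the 11.9% and 28.6% of all genes given above. Members named for passing only without replicate 1 were chosen after their values were seen. The largest rise was that of Trpm6, the apical channel through which the gut absorbs magnesium. It had 8.79, 9.44 and 9.24 in the transgenic arrays, against 5.84, 6.26 and 6.59 in the control arrays, far apart with no overlap. The difference was 2.93 (SE 0.243, limma adjusted p = 0.00222), and it passed with any array left out, at 2.73 to 3.11.

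Of 17 measured genes of calcium and phosphate absorption 2 rose, Trpm6 and the plasma membrane calcium pump Atp2b1 (0.59, limma adjusted p = 0.0148), and 1 fell. Without transgenic replicate 1, 6 of 17 passed, 3 higher and 3 lower, among them Vdr, the vitamin D receptor (-1.11, adjusted p = 8.24e-05). The gene that fell with all arrays was Xpr1, the phosphate exporter of cells, with 8.14, 8.61 and 8.49 in the transgenic arrays, against 9.82, 9.64 and 9.73 in the control arrays. All transgenic arrays lay below the controls, with a difference of -1.31 (SE 0.139, adjusted p = 0.0043), and the call stayed with any array left out. For Atp2b1, omitting transgenic replicate 2 or a control ended the call (adjusted p up to 0.0802). Of 8 other proton and calcium pumps Atp2a3, a calcium pump of the endoplasmic reticulum, fell by 1.02 (adjusted p = 0.0111, and 0.0604 without control replicate 1), and without transgenic replicate 1, 2 of the 8 passed, both lower.

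Of 10 scaffolds and cofactors of exchangers 3 fell and 0 rose with all arrays, while without transgenic replicate 1, 6 passed, 4 lower and 2 higher. The higher ones were Chp2, a cofactor of sodium-hydrogen exchangers (0.61, limma adjusted p = 8.17e-04), and Gopc, a Golgi scaffold that binds Cftr (0.36, adjusted p = 0.0198). For Chp2, transgenic replicate 1 had 10.16, below all controls (11.10 to 11.19). Its difference with all arrays was 0.07 (limma adjusted p = 0.948). Shank2, a scaffold that binds Slc9a3 and the chloride channel Cftr, had 8.26, 8.28 and 8.54 in the transgenic arrays, against 9.50, 9.29 and 9.56 in the control arrays. The groups were well apart, with a difference of -1.09 (SE 0.12, limma adjusted p = 0.00491) that passed with any array left out. Lnx1, a ubiquitin ligase with PDZ domains, fell by 1.10 (adjusted p = 0.00825, and 0.0507 without control replicate 2). Ahcyl1, known as IRBIT, which activates bicarbonate transporters and Slc9a3, fell by 0.51 (adjusted p = 0.0319). Leaving out any array other than transgenic replicate 1 ended the call, at adjusted p up to 0.142. Wnk2, of the WNK kinases that control chloride cotransporters, was the 1 of 10 genes of its list that passed with all arrays. Without transgenic replicate 1, 4 of the 10 passed, 1 higher and 3 lower, among them Stk39, the kinase SPAK (-0.89). On transgenic replicate 1 Stk39 had 10.53, above all controls (9.11 to 9.28). Its difference with all arrays was -0.15 (limma adjusted p = 0.922). Wnk2 fell by 0.97 (limma adjusted p = 0.0211), and here too each array but transgenic replicate 1 was needed for the call (otherwise up to 0.0998).

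**Figure D4:**
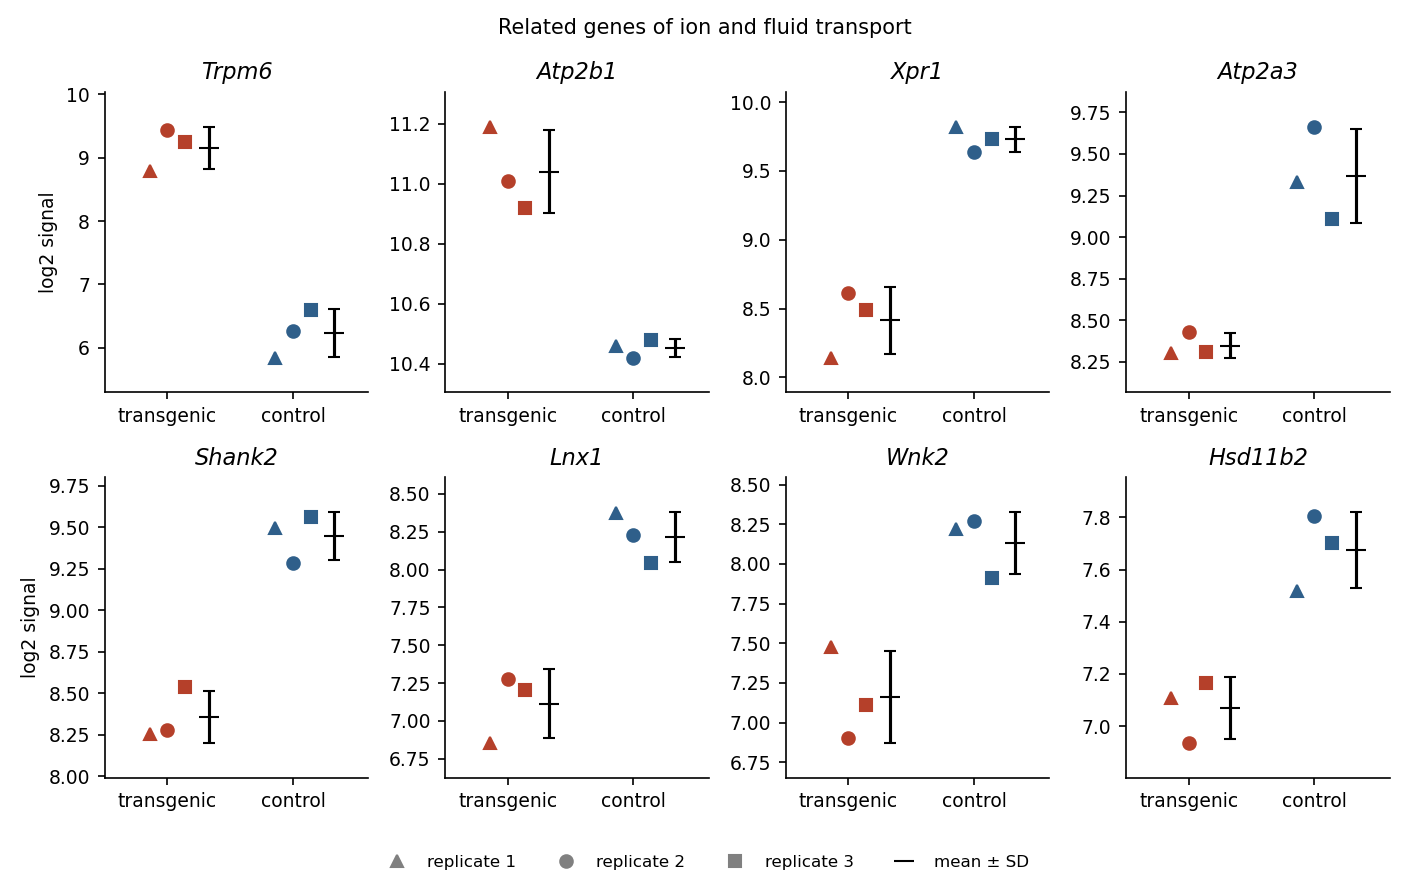
Log2 signals of 8 related genes that passed, 1 point per array by replicate, transgenic on the left and control on the right of each panel, with mean ± SD (n = 3 each). Groups do not overlap in any panel, and Trpm6 has the widest distance between groups (8.79 or more in the transgenic arrays against 6.59 or less in the control arrays).

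Among 14 chloride and potassium channels of secretion 1 passed. Kcnj13, an inward-rectifier potassium channel, had 5.47, 7.34 and 7.08 in the transgenic arrays, against 10.37, 10.82 and 8.49 in the control arrays. Control replicate 3 thus lay well below the other controls. Kcnj13 fell by 3.26 (limma adjusted p = 0.0417). The call was lost when transgenic replicate 2 or 3, or control replicate 1 or 2, was left out (adjusted p up to 0.16). Without transgenic replicate 1 there were 6 passed, 1 higher and 5 lower, among them Kcnq1 (-1.71) and Kcnn4 (-1.62), basolateral potassium channels named after their values were seen. Of 16 carbonic anhydrases, which supply bicarbonate and protons to the exchangers, 2 fell with all arrays and 3 without transgenic replicate 1. Car8, which passed only without that array, had 8.15 on it, above all controls (7.66 to 7.84). Car2 fell by 2.51 (adjusted p = 0.0421), with a difference of -1.85 when transgenic replicate 1 was left out, and Car15 fell by 0.66 (adjusted p = 0.02). Omitting transgenic replicate 3 or a control ended the call of Car2 (adjusted p up to 0.154), and omitting transgenic replicate 2 or a control that of Car15 (up to 0.0717).

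Of 9 genes of the sodium channel and aldosterone pathway 1 passed with all arrays and 7 without transgenic replicate 1, 3 higher and 4 lower. Among the 7 were Nr3c2, the mineralocorticoid receptor (-0.82), and Tsc22d3, a glucocorticoid-induced gene (1.16). For Tsc22d3, transgenic replicate 1 (9.12) lay within the control range (8.91 to 9.45). Hsd11b2, the enzyme that keeps glucocorticoids from the mineralocorticoid receptor, fell by 0.61 (limma adjusted p = 0.0216). Its difference stayed at -0.68 to -0.54 with any array left out, while the call was lost with transgenic replicate 2 or a control omitted (adjusted p up to 0.0945). Of 7 FXYD subunits, small regulators of the sodium pump, and of 9 genes of the secretagogue pathway 0 passed with all arrays (1 and 0 at an unadjusted p under 0.05). Without transgenic replicate 1, 2 FXYD genes passed, both lower, and 4 secretagogue genes, all higher. On transgenic replicate 1 itself Fxyd3, a gene of the former, had 8.19, above all controls (8.12 to 8.17). Among the secretagogue genes that array lay below all controls for Gucy2c (10.67 against 11.01 to 11.09) and Prkg2 (9.03 against 9.96 to 10.11). It lay within the control range for Ptger4 and Nos2.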

How the data were processed

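RNA of 6 preparations of jejunal epithelial cells, 3 transgenic and 3 control by the sample titles, was measured on Affymetrix mouse gene arrays from 250 ng of total RNA each, as the labels' protocols state. The authors deposited log2 signals, for which the submitters' processing notes list RMA and Partek 6.5. RMA equalises the arrays' distributions, so a change in total RNA cannot show, and low signals are compressed.

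Rows were named through the platform annotation: 21789 of 35399 rows had 1 symbol, and only these were used. Per gene the row with the highest mean over 6 arrays was kept, which left 19938 genes. Transgenic minus control was fitted by lmFit and eBayes, without trend, from limma 3.58.1 (R 4.3.3), and ± is an SD. The limma fit was tested on simulated data that had the spread of the control arrays in both groups. No simulated array stood apart as transgenic replicate 1 does, so that setting was not tested. The number of arrays, 3 a group, limits the precision. Genes were named if they passed, if groups did not overlap at an absolute difference of at least 1, or if known from gut epithelium; of related lists, up to 3 that passed. Chromosomes and promoters are those of RefSeq GRCm38.p6. Members and lists were chosen with earlier results of these data known. Alternatives were quantile normalization, equal medians, removal of the dimmest 40% of genes, replicate blocks, trend and robust eBayes, array weights, mean of rows, leaving out each array and an adjusted p under 0.1; leaving out both replicates numbered 1, and the related lists without transgenic replicate 1, were added after seeing the data. Replicate numbers were not used as pairs in the main fit, and whether they pair the samples could not be settled.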

Additional observations from a re-analysis of the deposited data

How the results depend on the processing

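The count of members that passed, 4 with all arrays, was 4 or 5 with quantile normalization, equal array medians, the dimmest genes removed, trend and robust settings or the mean of rows, and 8 at an adjusted p under 0.1. It was 15 with array weights, 13 without both replicates numbered 1, and 1 to 15 with 1 array left out, highest without transgenic replicate 1. Over all genes the count, 2368, was 5770 with array weights, 4573 without both replicates numbered 1, and 683 to 5700 with 1 array left out. With a replicate block on the title numbers 0 members passed by limma (11 at an unadjusted p under 0.05) and 733 of all genes. With a replicate block on the numbers in the sample descriptions, which leaves only the pairs numbered 3 and 4, 12 members and 4019 of all genes passed. Deviations of same-numbered arrays from their group means correlated at -0.07, -0.168 and -0.122 across genes. With 3 arrays a group such deviations depend on each other, and those of the transgenic arrays largely follow replicate 1. These correlations therefore cannot show whether the numbers pair the samples. The median difference of members stayed between -0.11 and -0.02 in every alternative. Of 270 recomputed differences of 18 named genes, 206 kept direction and side of the threshold and 18 no longer passed. Another 29 came to pass with the same sign, and 17 turned sign, whether or not they passed. Slc34a2 both turned sign and passed with the block on the description numbers (limma adjusted p = 1.56e-07). It did so too without transgenic replicate 1 (3.05e-04) and without both replicates numbered 1 (5.95e-04). Those that turned, none of them called with all arrays, were Slc34a2, Slc12a7, Slc20a1 and Atp1b1 with array weights (0.713, 0.0633, -0.0629 and 0.0266), with the block on the description numbers (1.02, 0.13, -0.0961 and 0.056), without transgenic replicate 1 (0.946, 0.119, -0.133 and 0.0322) and without both replicates numbered 1 (1.02, 0.13, -0.0961 and 0.0559), and Slc26a2 without transgenic replicate 2 (-0.0477). With arrays left out the differences ran from -0.93 to 1.02 for Slc34a2, -0.417 to 0.13 for Slc12a7, -0.133 to 0.605 for Slc20a1, -0.186 to 0.0559 for Atp1b1 and -0.0477 to 1.18 for Slc26a2. The cause of these changes was not tested beyond the arrays that were left out.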
